A study of Mus musculus with 6 samples.

Results

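The 46 genes described here drive and carry out the G2 phase and mitosis, the part of the cell cycle between the end of DNA replication and the separation of the daughter cells. They were chosen by gene symbol, and all 46 were found among the 18543 genes of the deposited count table. All 46 also passed the filter on low counts, which left 14052 genes, and the smallest count of any member in any library was 86 (Cdc25c). Messenger RNA had been measured in group 2 innate lymphoid cells (ILC2s), lymphocytes without antigen receptors that answer epithelial alarmins with type 2 cytokines. The cells came from lungs of mice of the C57BL/6 strain, 8 weeks old. Every mouse, of either genotype, had received 0.5 µg of recombinant mouse IL-33 through the nose on each of 3 days, and sorted ILC2s were taken on day 4. The 3 libraries of the wild-type group are called WT 1 to WT 3, and the 3 libraries of the group with the genotype Atg5-/- are called KO 1 to KO 3. The sources used here do not say in which cells Atg5 was deleted, which exons were removed, or whether each library came from its own mouse. P-values therefore measure the spread between these libraries, which may be technical.

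Atg5, the targeted gene, whose product helps attach LC3 to autophagosome membranes, was at 66.3, 71.8 and 21.8 CPM in WT 1, WT 2 and WT 3. Under the knockout label it was at 23.0, 25.6 and 52.2 CPM (CPM, the count of a gene relative to the scaled total of its library). WT 3 was as low as KO 1 and KO 2 and thus went against its label. KO 3 was 1.10 log2 units above the mean of KO 1 and KO 2. The mean of WT 1 and WT 2 was 1.32 times the level in KO 3, so that KO 3 also went against its label. Because the removed exons are not known, a count over the whole gene may not show the deletion in full. Each direction below is therefore one between labels, and results are also given without WT 3 and without both libraries numbered 3. The fit without WT 3 keeps KO 3 in the knockout group and so does not correct the labels. Library totals ran from 28827545 to 33662979 counts, and 3 counts corresponded to 0.0891 to 0.104 CPM. Over the genes tested, log2 CPM correlated at 0.991 between WT 1 and WT 2 and at 0.990 to 0.991 among WT 3, KO 1 and KO 2. KO 3 correlated at 0.979 to 0.980 with those 3 libraries, and WT 1 and WT 2 correlated at 0.933 to 0.948 with the other 4. All 12 markers of ILC2s were listed in the table. They summed to 16974, 17841 and 15105 CPM in WT 1 to WT 3 and 15091, 14437 and 11113 CPM in KO 1 to KO 3. These sums had the order of libraries that 45 of the 46 genes have below. Il5 was the largest part of each sum, at 8242, 9003 and 9148 CPM and then 9194, 8702 and 5352 CPM. Taken singly, only Klrg1, Thy1 and Areg of the 12 markers had that order. Gata3, Il1rl1, Id2 and Klrg1 were each higher in WT 1 and WT 2 than in the other 4 libraries, with Id2 at 2001 and 2138 CPM against 932 to 1033 CPM. Il13 was lower there, at 99.0 and 117 CPM against 286 to 367 CPM, and Thy1 stayed between 0.670 and 9.85 CPM. The part of these markers in the order of the 46 genes was not tested.

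Entry into mitosis depends on CDK1 bound to A- and B-type cyclins. Aurora and Polo-like kinases then build the spindle, kinetochores attach chromosomes to it, and the anaphase-promoting complex, a ubiquitin ligase, marks the cyclins for destruction so that the cell can divide. The messenger RNAs of these proteins are made in a wave late in the cycle, under the transcription factors FOXM1 and MYBL2. In resting cells the same genes are held down by the DREAM complex, which shares with MYBL2 the MuvB core that binds a promoter element called CHR. ILC2s proliferate in the lung after IL-33. In bulk RNA, fewer cells in G2 and mitosis and less of these RNAs per cell cannot be told apart.

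Because the members are known for shared promoter elements, their promoters were searched for the CHR and for the CCAAT box, which NF-Y binds. A CHR was taken as TTTGAA or TTTAAA and a CCAAT box as CCAAT, each on both strands, with overlapping matches counted. Promoter windows of 300 bases, from 250 before to 50 after the start site, came from RefSeq on GRCm38 and matched 38 of the 46 members with 41 windows. A CHR was present in 36 of these windows (87.8%), against 19.6% of the 12284 windows that matched 9648 of the 14052 genes tested. A CCAAT box was present in 33 (80.5%), against 38.0%. Both occurred in 31 (75.6%), against 7.75%. In the 49 windows of DNA replication genes, which are made earlier in the cycle, the shares were 24.5% for the CHR, 59.2% for the CCAAT box and 16.3% for both. A match describes letters and is no evidence of binding. The 6 windows printed here belong to the most abundant members that hold both elements, and they show how the elements are spaced. Each reads 5′ to 3′ on the strand of the gene, and capitals mark every CHR and CCAAT box on either strand.
Hmgb2 promoter, chr8:57511593-57511892, forward strand: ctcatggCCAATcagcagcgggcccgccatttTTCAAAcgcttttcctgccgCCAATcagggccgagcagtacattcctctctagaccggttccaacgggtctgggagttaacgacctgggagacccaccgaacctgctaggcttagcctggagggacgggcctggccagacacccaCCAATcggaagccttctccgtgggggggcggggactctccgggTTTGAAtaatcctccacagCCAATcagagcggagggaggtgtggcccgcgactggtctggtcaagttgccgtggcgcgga
Top2a promoter, chr11:99024140-99024439, reverse strand: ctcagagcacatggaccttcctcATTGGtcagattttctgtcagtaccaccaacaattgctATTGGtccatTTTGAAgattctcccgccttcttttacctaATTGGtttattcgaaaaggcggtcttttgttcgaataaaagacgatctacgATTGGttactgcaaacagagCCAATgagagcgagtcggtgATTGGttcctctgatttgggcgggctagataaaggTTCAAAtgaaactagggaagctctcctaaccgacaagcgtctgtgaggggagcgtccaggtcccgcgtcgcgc
Ccnb1 promoter, chr13:100786437-100786736, reverse strand: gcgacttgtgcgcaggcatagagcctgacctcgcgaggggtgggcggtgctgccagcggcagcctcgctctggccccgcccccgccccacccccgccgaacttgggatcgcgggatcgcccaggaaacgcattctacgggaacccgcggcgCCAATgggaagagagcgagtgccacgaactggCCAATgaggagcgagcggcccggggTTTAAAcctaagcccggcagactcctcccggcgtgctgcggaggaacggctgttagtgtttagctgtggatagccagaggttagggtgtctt
Ube2c promoter, chr2:164769679-164769978, forward strand: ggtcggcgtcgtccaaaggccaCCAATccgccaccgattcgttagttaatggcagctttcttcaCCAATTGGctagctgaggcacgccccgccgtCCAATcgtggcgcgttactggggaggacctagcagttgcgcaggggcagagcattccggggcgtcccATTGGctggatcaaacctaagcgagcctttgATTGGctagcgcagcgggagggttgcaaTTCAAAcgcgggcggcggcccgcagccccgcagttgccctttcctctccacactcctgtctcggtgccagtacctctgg
Racgap1 promoter, chr15:99651607-99651906, reverse strand: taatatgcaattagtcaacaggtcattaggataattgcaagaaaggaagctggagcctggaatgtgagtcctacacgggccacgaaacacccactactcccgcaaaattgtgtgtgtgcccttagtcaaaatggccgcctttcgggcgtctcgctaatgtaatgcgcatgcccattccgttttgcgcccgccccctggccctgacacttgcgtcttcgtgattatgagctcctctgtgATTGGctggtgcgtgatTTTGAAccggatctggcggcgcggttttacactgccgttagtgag
Hjurp promoter, chr1:88277530-88277829, reverse strand: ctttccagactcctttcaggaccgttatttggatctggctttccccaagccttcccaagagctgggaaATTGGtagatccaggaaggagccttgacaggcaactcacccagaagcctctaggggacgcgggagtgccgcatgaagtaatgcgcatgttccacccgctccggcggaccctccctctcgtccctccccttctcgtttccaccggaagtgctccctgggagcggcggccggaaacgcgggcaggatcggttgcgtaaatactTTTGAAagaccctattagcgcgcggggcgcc

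The Ccnb1 window held its CHR 39 bases before the start site and CCAAT boxes 97 and 65 bases before it, measured to the centre of each element. Top2a and Ube2c carried 6 CCAAT boxes each, and their CHR nearest to the start lay 20 and 26 bases before it. In Racgap1 and Hjurp the CHR lay inside the transcribed part, 8 and 22 bases after the start. Over all member windows, CHR matches were densest in the 25 bases that follow the start site, at 39.0 matches per 100 windows, where the windows of genes tested had 1.37.

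**Figure D1:**
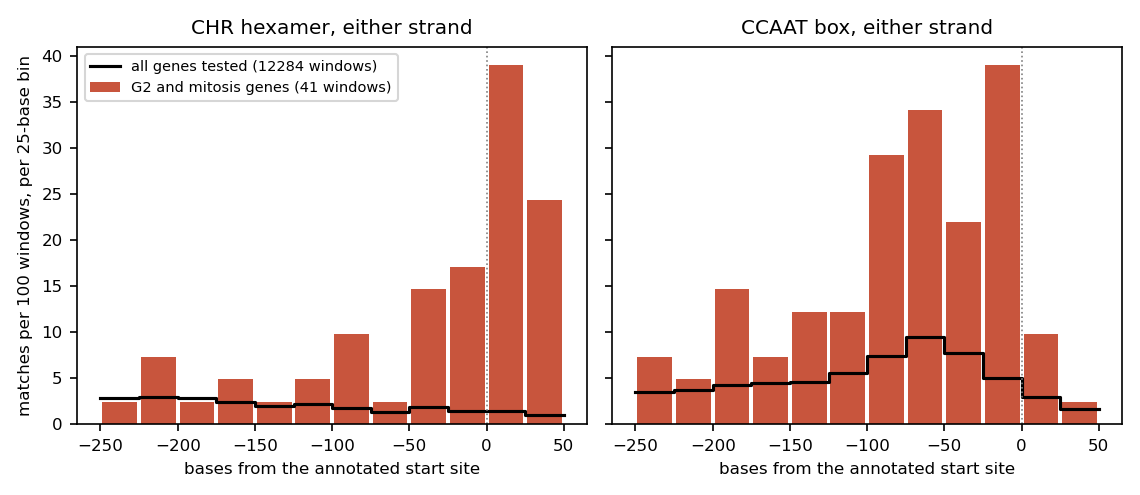
Matches per 100 promoter windows in bins of 25 bases, against distance from the annotated start site, for the CHR (left) and the CCAAT box (right). Bars are the 41 windows of G2 and mitosis genes and the black line is the 12284 windows that matched 9648 of the genes tested. CHR matches of the members are densest just after the start site, and CCAAT boxes in the 100 bases before it.

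The 46 genes followed 1 order across the 6 libraries. Their summed level was 6046 and 6331 CPM in WT 1 and WT 2, 4136 CPM in WT 3, 3906 and 3728 CPM in KO 1 and KO 2, and 1704 CPM in KO 3. KO 3 held the lowest value for 46 of 46 members, where 20.3% of all genes tested had their lowest value in that library. WT 1 and WT 2 were the highest pair for 45 members, beside 28.2% of all genes. For 45 of 46, WT 1 and WT 2 were highest, WT 3, KO 1 and KO 2 lay between, and KO 3 was lowest, beside 10.6% of all genes. These orders were defined after the values were seen, and the exception was Hmgb2. In 31 members the 3 knockout libraries all lay below the 3 wild-type libraries, where 9.22% of all genes tested did so. They all lay above in 0 members, where 9.26% of all genes did. In the other 15 members, WT 3 was below KO 1, KO 2 or both.

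**Figure D2:**
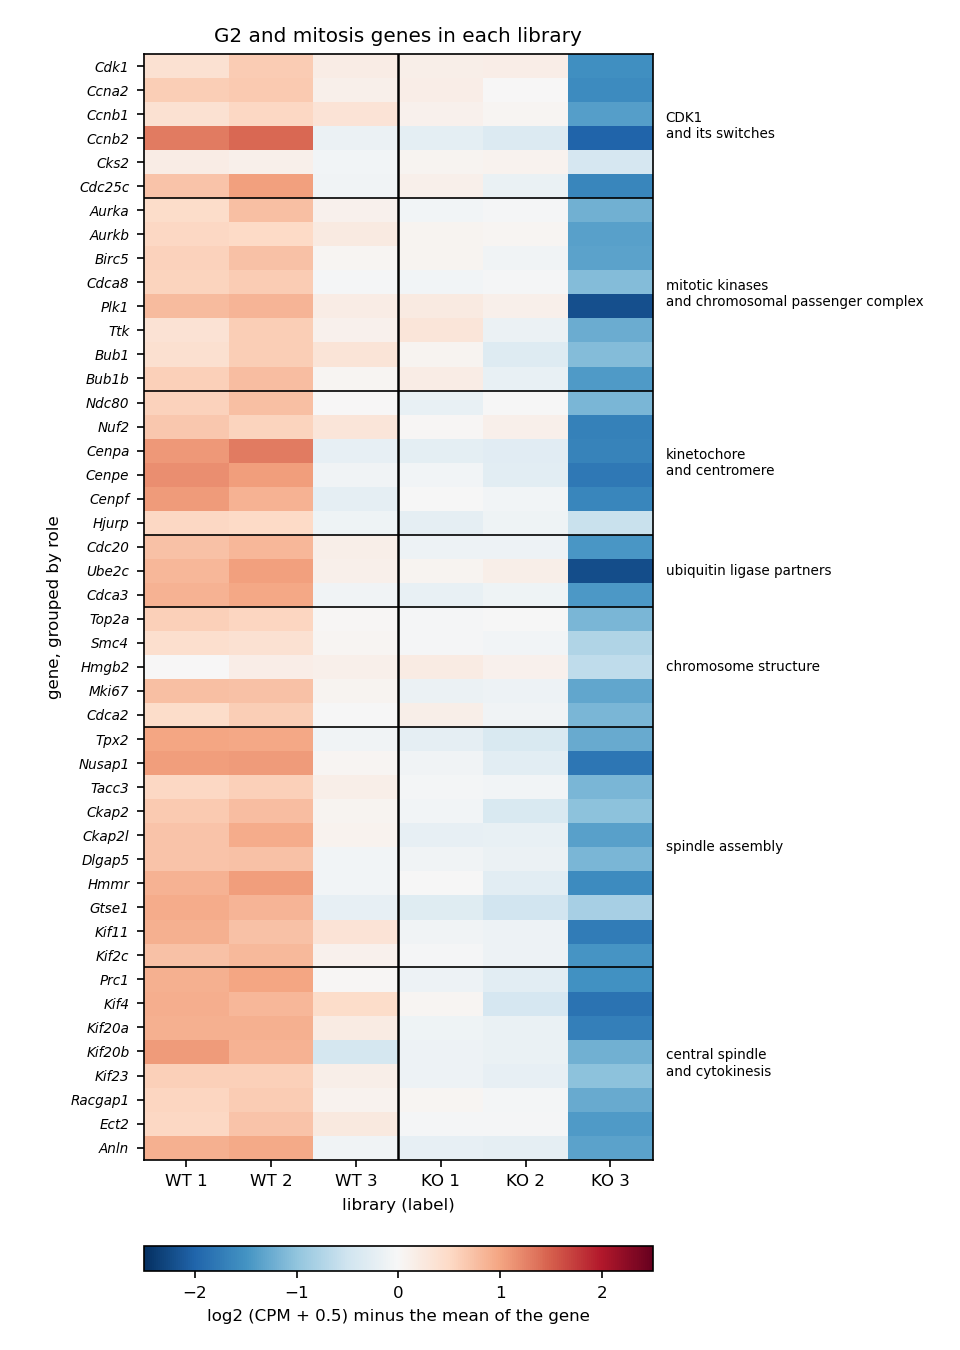
Level of each of the 46 genes in each library, as log2 (CPM + 0.5) minus the mean of that gene over the 6 libraries (colour), with rows grouped by role and the vertical line between the labelled groups. KO 3 is the lowest library in every row, and WT 3 lies nearer to the mean of KO 1 and KO 2 than to that of WT 1 and WT 2 in every row but Ccnb1, Bub1, Kif4 and Hmgb2.

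With all 6 libraries every member had a lower fitted level under the knockout label. The median log2 difference was -0.91 over the members and 0.02 over all genes tested. Single differences ran from -1.71 (Ccnb2) to -0.16 (Cks2). None of the 46 passed edgeR's quasi-likelihood test (adjusted p from 0.342 to 0.709), nor did any other gene, so that 0% of genes were called. At an unadjusted p under 0.05 there were 28 members, all lower, where 10.4% of genes were lower and 3.99% higher. DESeq2 called 2 members lower on the same counts, Gtse1 (adjusted p = 0.0405) and Tpx2 (adjusted p = 0.0479). Over all genes it called 2.19% lower and 0.107% higher.

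Without WT 3, 24 of 46 members fell and none rose by edgeR. Over all genes of that fit, 33.9% were called, 16.1% lower and 17.7% higher. The median member was then at -1.10 and the median gene at 0.02. Without both libraries numbered 3, 43 of 46 fell and none rose, where 45.4% of genes were called, 22.7% in each direction. The median member was at -0.79 there, and all 24 genes that fell without WT 3 fell in it too. The standard errors of the members ranged from 0.177 to 0.579 with all 6 libraries, from 0.138 to 0.675 without WT 3 and from 0.067 to 0.209 without both. The last fit kept WT 1 with WT 2, which correlated at 0.991, and KO 1 with KO 2, at 0.990. It dropped the library of each group that stood apart. Its standard errors and p-values therefore leave out the spread that WT 3 and KO 3 bring, here and below.

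**Figure D3:**
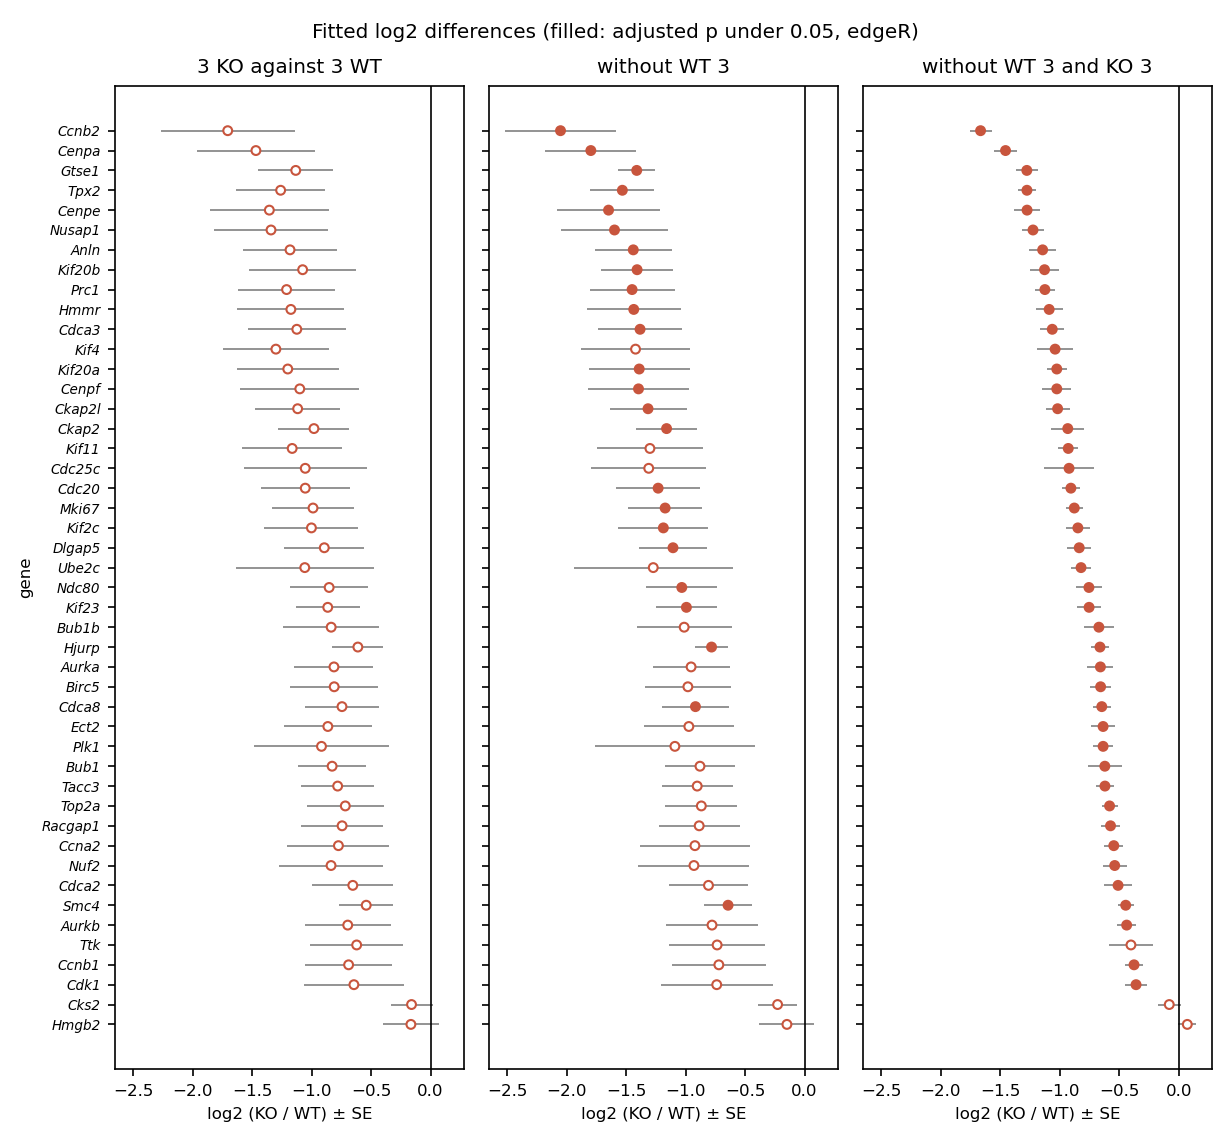
Fitted log2 difference, knockout minus wild type, with its standard error (bars) for each of the 46 genes in 3 edgeR fits: all 6 libraries, without WT 3, and without WT 3 and KO 3. Filled points passed an adjusted p of 0.05, which 0, 24 and 43 genes did, and Hmgb2 and Cks2 lie nearest to 0 in each panel.

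Among CDK1 and its switches, the B-type cyclins parted. Ccnb2, which encodes cyclin B2 (chromosome 9 from 70407692 to 70421547, reverse strand, mm10), had the largest difference of the 46 in each of these fits. Its level was 127, 138 and 46.2 CPM in WT 1 to WT 3 and 42.7, 40.4 and 12.3 CPM in KO 1 to KO 3. The groups did not overlap, but WT 3 was close to KO 1 and KO 2 and far from the other wild-type libraries. Ccnb2 fell by 2.05 (SE 0.47, adjusted p = 0.0163) without WT 3, in log2 units, and fell by 1.67 (SE 0.093, adjusted p = 8.88e-07) without both libraries numbered 3. Ccnb1, which encodes cyclin B1, a main partner of CDK1 at mitotic entry (chromosome 13 from 100778650 to 100786570, reverse strand), was at 174, 192 and 169 CPM under the wild-type label and at 144, 138 and 51.0 CPM under the knockout label. Here WT 3 stayed near WT 1 and WT 2, and KO 3 was far below the rest. The Ccnb1 difference did not pass without WT 3 (-0.72, SE 0.4, adjusted p = 0.213), and Ccnb1 fell by 0.38 (SE 0.079, adjusted p = 0.00364) without both libraries numbered 3. Per kilobase of annotated exon, the level of Ccnb1 divided by that of Ccnb2 was 0.499 and 0.505 in WT 1 and WT 2 and 1.33, 1.22, 1.24 and 1.50 in WT 3, KO 1, KO 2 and KO 3. By this measure Ccnb2 was above Ccnb1 in WT 1 and WT 2 and below it in the other 4 libraries. In CPM, Ccnb1 was above Ccnb2 in every library. Which RNA is called more abundant thus depends on exon lengths of 4217 bases for Ccnb1 and 1531 for Ccnb2. These join the exons of all annotated transcripts and may not be the lengths of the expressed RNAs. The ratio was chosen after the values were seen and was not tested.

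Cdk1, the kinase itself (chromosome 10 from 69335146 to 69352938, reverse strand), was at 125, 149 and 109 CPM in WT 1 to WT 3 and at 105, 107 and 32.5 CPM in KO 1 to KO 3. Ccna2, which encodes cyclin A2, active from S phase to early mitosis, was at 179, 183 and 126 CPM and at 129, 117 and 38.5 CPM. In both genes WT 3, KO 1 and KO 2 were nearly level, and the gap down to KO 3 was larger on the log2 scale than the gap up to WT 1 and WT 2. Neither passed without WT 3 (adjusted p = 0.284 for Cdk1 and 0.179 for Ccna2). Without both libraries numbered 3, Cdk1 fell by 0.36 (SE 0.096, adjusted p = 0.0125) and Ccna2 fell by 0.55 (SE 0.079, adjusted p = 0.000371). Cdc25c, a phosphatase that activates CDK1, had the lowest CPM of the members, at 15.9, 19.9 and 8.95 CPM and then 10.4, 8.45 and 2.74 CPM. Cks2, a small CDK-binding subunit, varied little, with 60.5, 58.0 and 50.4 CPM against 55.4, 56.2 and 39.6 CPM. Its groups overlapped, and it passed none of the 3 edgeR fits (adjusted p = 0.62, 0.345 and 0.559).

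**Figure D4:**
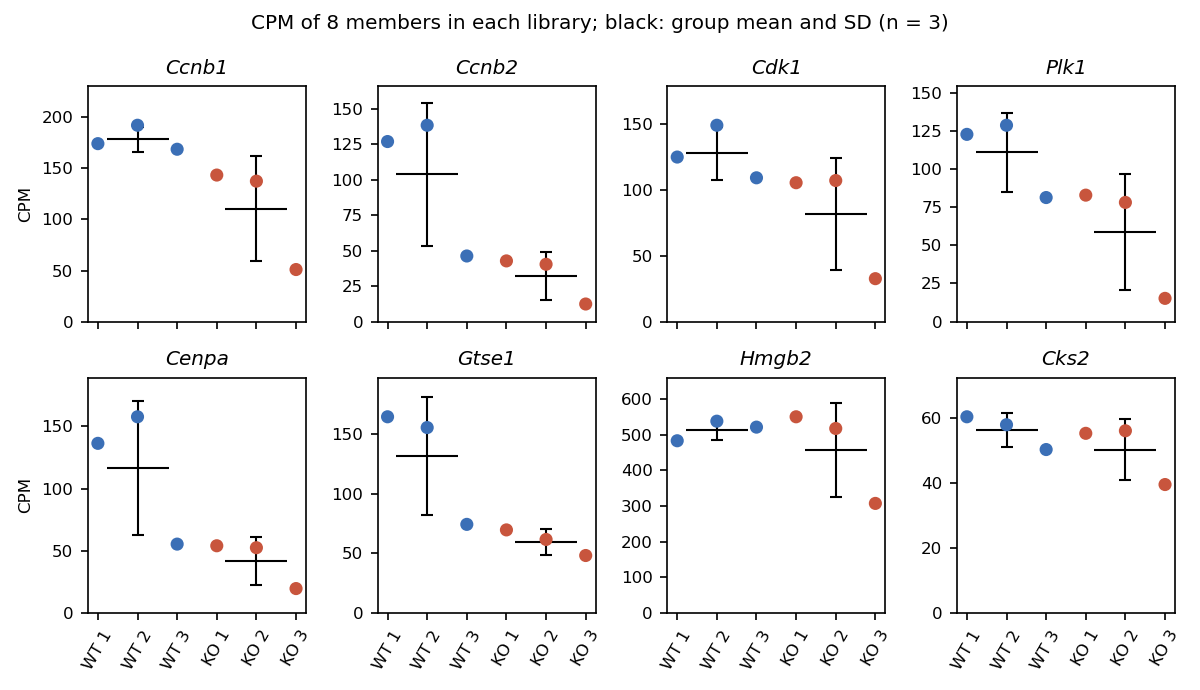
CPM (linear axis from 0) of 8 members in each library, blue for wild type and red for knockout, with the group mean and SD in black (n = 3 each). In Ccnb2, Cenpa and Gtse1, WT 1 and WT 2 stand above the other libraries, in Ccnb1, Cdk1 and Plk1 the widest gap is the one above KO 3, and Hmgb2 is level in all libraries but KO 3.

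Of the mitotic kinases and the chromosomal passenger complex, 1 of 8 members fell without WT 3 and 7 of 8 without both libraries numbered 3. Over all genes, 16.1% and 22.7% fell in these fits, so that the first count is no higher than the background. Plk1, Polo-like kinase 1, which acts at centrosomes, kinetochores and the cleavage site, had the deepest drop in KO 3. It was at 123, 129 and 81.5 CPM in WT 1 to WT 3 and at 83.1, 78.3 and 15.2 CPM in KO 1 to KO 3, and KO 3 was -2.40 log2 units from the mean of KO 1 and KO 2. Plk1 did not pass without WT 3 (-1.09, SE 0.67, adjusted p = 0.28) and fell by 0.64 (SE 0.083, adjusted p = 0.00018) without both libraries numbered 3. Aurka, the Aurora kinase of spindle poles, was at 96.1, 118 and 75.6 CPM against 66.5, 68.5 and 30.1 CPM. Aurkb, the catalytic subunit of the passenger complex, was at 124, 121 and 101 CPM against 90.7, 89.5 and 33.3 CPM. The groups did not overlap in either gene, and neither passed without WT 3 (adjusted p = 0.0596 and 0.166). Birc5, which encodes survivin, a passenger subunit, was at 155, 173 and 107 CPM against 109, 98.5 and 41.1 CPM, and its groups overlapped. Cdca8, which encodes the passenger subunit borealin, was the member that fell by 0.92 (SE 0.28, adjusted p = 0.0439) without WT 3. The spindle checkpoint kinases Ttk and Bub1 and the related Bub1b were at 7.72, 22.2 and 27.5 CPM in KO 3, their lowest library. Ttk passed none of the 3 fits (adjusted p = 0.411, 0.209 and 0.113).

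At the kinetochore and centromere, 5 of 6 members fell without WT 3, and 6 of 6 without both libraries numbered 3. Over all genes, 16.1% and 22.7% fell in these fits. Cenpa, the histone H3 variant that marks centromeres (chromosome 5 from 30666777 to 30674830, forward strand), was at 136, 158 and 55.4 CPM against 54.1, 52.5 and 19.7 CPM. As with Ccnb2, WT 3 stood beside KO 1 and KO 2. Cenpa fell by 1.46 (SE 0.096, adjusted p = 2.37e-06) without both libraries numbered 3 and also passed without WT 3 (adjusted p = 0.0107). Hjurp, the chaperone that loads CENP-A, was at 175, 172 and 113 CPM against 104, 114 and 83.0 CPM. Its KO 3 value was the nearest of all members to KO 1 and KO 2, at -0.39 log2 units from their mean, and Hjurp fell by 0.78 (SE 0.14, adjusted p = 0.00474) without WT 3. Cenpe, a kinesin that moves chromosomes to the spindle equator, was at 90.8, 83.5 and 38.1 CPM against 38.3, 33.3 and 11.4 CPM. It fell by 1.65 (SE 0.43) in the same fit. Cenpf, a large kinetochore protein, was at 58.4, 50.9 and 23.5 CPM against 27.3, 26.1 and 8.58 CPM and fell by 1.40 (SE 0.43). In both of these genes the groups overlapped, since WT 3 was below KO 1. Ndc80 and Nuf2 encode partners in the complex that grips microtubules. Ndc80 fell by 1.03 (SE 0.3, adjusted p = 0.0351), while Nuf2 did not pass (-0.93, SE 0.47, adjusted p = 0.173).

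Partners of mitotic ubiquitin ligases were represented by 3 genes, of which 2 fell without WT 3, where 16.1% of all genes fell. Ube2c, the ubiquitin-conjugating enzyme of the anaphase-promoting complex, was at 205, 236 and 126 CPM in WT 1 to WT 3 and at 121, 127 and 24.3 CPM in KO 1 to KO 3. KO 3 lay -2.35 log2 units from the mean of KO 1 and KO 2, next to Plk1 in depth, and Ube2c did not pass without WT 3 (-1.27, SE 0.67, adjusted p = 0.209). Of its annotated exon bases, 22.8% overlap the oppositely transcribed Tnnc2, so that its level is uncertain to that extent. Cdc20, which activates the complex at anaphase, was at 168, 180.0 and 112 CPM against 92.2, 92.6 and 36.7 CPM and fell by 1.23 (SE 0.35, adjusted p = 0.0341) without WT 3. Cdca3, linked to the destruction of the CDK1 inhibitor WEE1, fell by 1.38 (SE 0.35, adjusted p = 0.0212) in that fit.

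Of the genes of chromosome structure, 2 of 5 fell without WT 3 and 4 of 5 without both libraries numbered 3. The shares over all genes were 16.1% and 22.7%. Hmgb2, a chromatin protein abundant in cycling lymphocytes, was at 483, 538 and 521 CPM in WT 1 to WT 3 and at 549.8, 517 and 307 CPM in KO 1 to KO 3. It was level in every library but KO 3, and its difference turned to 0.06 without KO 3 and 0.07 without both libraries numbered 3. It passed none of the 3 fits (adjusted p = 0.709, 0.672 and 0.472). Its promoter holds both elements, as printed above. Top2a, the topoisomerase that untangles sister chromatids (chromosome 11 from 98992943 to 99024189, reverse strand), was at 364, 349 and 246 CPM against 237, 237 and 109 CPM. Its difference did not pass without WT 3 (-0.87, SE 0.3, adjusted p = 0.0652), and Top2a fell by 0.58 (SE 0.067, adjusted p = 8.11e-05) without both libraries numbered 3. Mki67, which encodes the proliferation antigen Ki-67 on the surface of mitotic chromosomes, was at 189, 188 and 118 CPM against 102, 102 and 45.7 CPM and fell by 1.17 (SE 0.31, adjusted p = 0.0256) without WT 3. Smc4, a condensin subunit, fell by 0.64 (SE 0.2, adjusted p = 0.0466), and Cdca2, a phosphatase subunit on anaphase chromatin, did not pass (-0.81, SE 0.33, adjusted p = 0.102).

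Of the spindle assembly genes, 8 of 10 members fell without WT 3 and 10 of 10 without both libraries numbered 3. The shares over all genes were 16.1% and 22.7%. Gtse1, a microtubule-binding protein of G2 and mitosis, was at 165, 156 and 74.3 CPM against 69.7, 61.7 and 48.2 CPM. It had the lowest adjusted p of the 46 without WT 3, where it fell by 1.41 (SE 0.15, adjusted p = 0.000651). Tpx2, which activates Aurora A on the spindle, was at 239.7, 235 and 112 CPM against 102, 92.5 and 50.0 CPM and fell by 1.53 (SE 0.27, adjusted p = 0.00467). In both genes the gap below WT 1 and WT 2 was wider on the log2 scale than the gap above KO 3. Nusap1, a microtubule-bundling protein, was at 163, 165 and 81.8 CPM against 74.2, 65.2 and 22.1 CPM and fell by 1.60 (SE 0.45, adjusted p = 0.0374). Hmmr, a receptor-type protein of spindle microtubules, was at 95.5, 108 and 49.9 CPM against 51.5, 43.6 and 17.1 CPM and fell by 1.44 (SE 0.39, adjusted p = 0.0287). Its groups overlapped, with WT 3 below KO 1. Kif2c, a kinesin that takes microtubules apart, was at 80.3, 85.2 and 51.7 CPM against 47.5, 44.0 and 17.0 CPM, and its groups did not overlap. Kif2c fell by 1.19 (SE 0.38, adjusted p = 0.0479), and the spindle proteins Dlgap5, Ckap2 and Ckap2l fell by 1.11, 1.16 and 1.32 in that fit. Kif11, the motor that pushes spindle poles apart, was at 158, 142 and 107 CPM against 79.6, 77.4 and 25.1 CPM and did not pass (-1.30, SE 0.45, adjusted p = 0.0694). Tacc3, which stabilises spindle fibres, did not pass either (adjusted p = 0.0549).

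For the central spindle and cytokinesis, 5 of 8 members fell without WT 3, and 8 of 8 without both libraries numbered 3. Over all genes, 16.1% and 22.7% fell in these fits. Prc1, which bundles the microtubules between separating chromosomes, was at 174, 184 and 94.6 CPM against 85.3, 77.9 and 32.3 CPM and fell by 1.45 (SE 0.36, adjusted p = 0.0192) without WT 3. Kif4, the motor that works with PRC1, was at 66.4, 63.4 and 48.5 CPM against 36.6, 26.3 and 9.48 CPM. In Kif4, WT 3 stood 0.63 log2 units above the mean of KO 1 and KO 2, the widest such gap of the 46, and the difference without WT 3 did not pass (-1.42, SE 0.46, adjusted p = 0.0505). Anln, the actin-binding anillin of the cleavage furrow, was at 52.8, 55.1 and 26.7 CPM against 24.5, 24.1 and 10.8 CPM and fell by 1.44 (SE 0.32, adjusted p = 0.0131). Kif20b, a kinesin of late mitosis, had WT 3 at 21.8 CPM, below KO 1 and KO 2 at 27.4 and 26.4 CPM. Kif23 and Racgap1 encode the subunits of centralspindlin. Kif23 fell by 0.99 (SE 0.25, adjusted p = 0.0219), and Racgap1 did not pass (-0.89, SE 0.34, adjusted p = 0.0869), nor did its partner Ect2, the activator of RhoA (adjusted p = 0.0885). Kif20a, a motor of the central spindle, fell by 1.39 (SE 0.43, adjusted p = 0.0446), although 29.3% of its annotated exon bases overlap the oppositely transcribed Cdc23. Overlaps with genes on the other strand also covered 15.1% of Kif4, 12.7% of Cdc25c, 12.5% of Ccna2 and 11.1% of Prc1.

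The members varied in which libraries set their differences. Between WT 1 and WT 2 and KO 1 and KO 2, in the fit without both libraries numbered 3, Ccnb2 (-1.67), Cenpa (-1.46) and Gtse1 (-1.28) changed most. Hmgb2 (0.07), Cks2 (-0.08), Cdk1 (-0.36) and Ccnb1 (-0.38) had the values nearest to 0. From KO 1 and KO 2 to KO 3 the median member differed by -1.33 log2 units and the median gene by -0.0064. That difference was deepest in Plk1 and Ube2c and shallowest in Hjurp, Gtse1 (-0.45) and Cks2 (-0.49). WT 3 was above both KO 1 and KO 2 in 31 members, between them in 12 and below both in 3. These orders were not counted over all genes. WT 3 lay below the mean of KO 1 and KO 2 in 6 of 46 members, beside 7268 of the 14052 genes tested. The median distance of WT 3 from that mean was 0.10 log2 units over the members and -0.0081 over all genes. The median log2 difference with all 6 libraries was -0.99 in the 33 members with a CHR in their window and -0.83 in the 5 without one. For the CCAAT box it was -0.95 in the 30 with one and -0.93 in the 8 without. Neither split was tested.

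Genes of the same pathway outside the 46 were read from the edgeR fit without WT 3, where 16.1% of all genes fell and 17.7% rose. With all 6 libraries none of them passed edgeR, and DESeq2 called 2.19% of all genes tested lower. DESeq2 called 3 of 29 spindle, kinesin and cytokinesis genes lower (Kif18b, Kif22 and Iqgap3) and 2 of 22 transcription factors (E2f2 and Tfdp2). It also called 1 of 11 G1 genes (Cdc25b) and 1 of 17 brakes (Cdkn2d) lower. Without WT 3, 17 of the 29 other spindle, kinesin and cytokinesis genes fell by edgeR and 0 rose, with a median of -1.14. The most abundant of them, the tubulins Tuba1b, Tubb4b and Tuba1c, are not limited to mitosis and did not pass (adjusted p = 0.669, 0.913 and 0.307). Of 38 other kinetochore and checkpoint genes, 9 fell and 1 rose, with a median of -0.39. Incenp, the scaffold of the passenger complex, fell by 0.72 (SE 0.19, adjusted p = 0.0256), and Zwint, a kinetochore linker, rose by 0.60 (SE 0.094, adjusted p = 0.00288). Among 18 condensin and cohesin genes 6 fell and 0 rose. Of 19 genes of the anaphase-promoting complex and its inhibitors, Anapc2 and Fzr1 fell and Anapc5, Anapc10, Anapc16 and Cdc26 rose, with a median of 0.10. Beyond the most abundant genes of each list, names that stand for a count of 5 or fewer, here and below, were chosen after their values were seen.

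DNA replication genes, which are made before the 46, gave other values. Of 50, 0 fell and Pold2 rose without WT 3, with a median of 0.04. Mcm5, a subunit of the replicative helicase, was at 287, 294 and 383 CPM in WT 1 to WT 3 and at 390.1, 385 and 196 CPM in KO 1 to KO 3. Pcna, the sliding clamp of DNA polymerases, was at 215, 220.2 and 271 CPM and then 269.8, 283 and 192 CPM. Both were higher in WT 3, KO 1 and KO 2 than in WT 1 and WT 2, the reverse of the mitotic genes, and both were lowest in KO 3. Without both libraries numbered 3, 22 of 50 replication genes rose and Rrm2, Tk1 and Lig1 fell, where 22.7% of all genes rose and as many fell, while 0 of the 46 G2 and mitosis genes rose. KO 3 was lowest for 45 of 50 replication genes, with a median -0.76 log2 units from the mean of KO 1 and KO 2. Rrm2, the ribonucleotide reductase subunit made in S phase, was at 692, 711 and 513 CPM and then 488, 426 and 215 CPM, in the order of the mitotic genes.

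**Figure D5:**
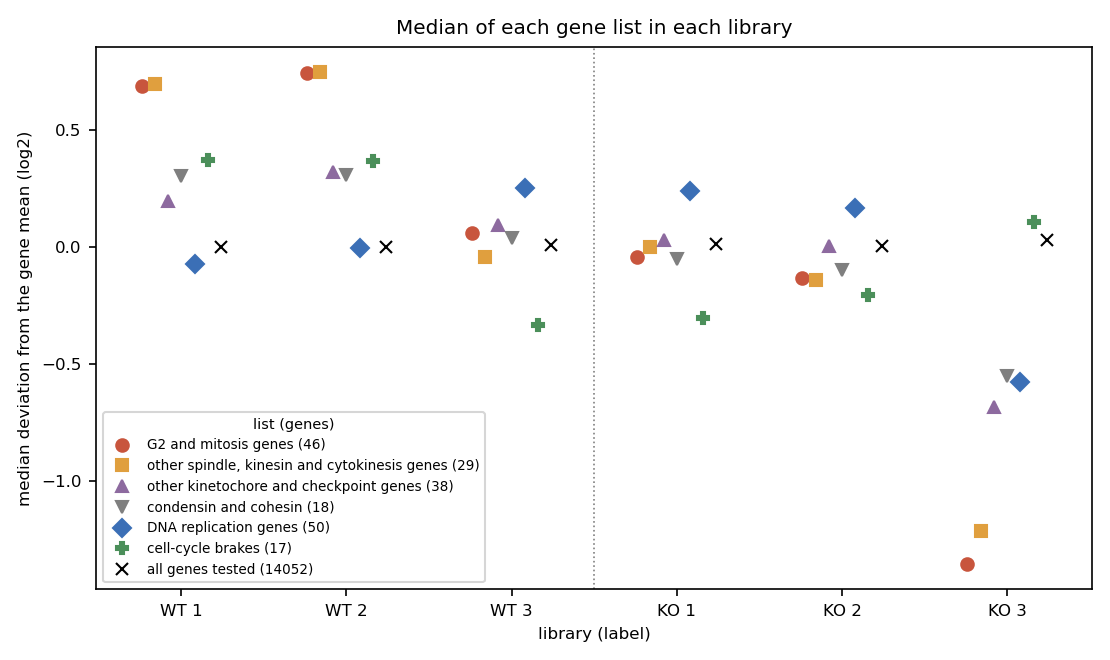
Median over the genes of a list of the deviation of log2 (CPM + 0.5) from the mean of each gene, for each library, with the number of genes tested in brackets. The G2 and mitosis genes stand at 0.69 and 0.75 in WT 1 and WT 2 and at -1.36 in KO 3, whereas the DNA replication genes are highest in WT 3, KO 1 and KO 2.

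Among 22 cell-cycle transcription factors, 6 fell without WT 3, and E2f3, E2f5 and Nfyc rose, beside 16.1% and 17.7% of all genes. Foxm1, an activator of many late cell-cycle genes, was at 63.8, 58.4 and 39.5 CPM in WT 1 to WT 3 and at 36.0, 24.6 and 14.2 CPM in KO 1 to KO 3. It had the order of the mitotic genes and fell by 1.29 (SE 0.33, adjusted p = 0.0224) without WT 3. Mybl2, which acts with the MuvB core, was at 66.3, 61.2 and 92.2 CPM and then 93.5, 95.4 and 41.9 CPM, the order of Mcm5, and did not pass (adjusted p = 0.568). The repressor E2f7 fell by 1.17 (SE 0.34, adjusted p = 0.0359), and Rbl2, which encodes the DREAM subunit p130, fell by 1.30 (SE 0.13, adjusted p = 0.000434). E2f1, E2f4, E2f8 and Rbl1 did not pass.

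Of 11 G1 cyclins and kinases tested, Ccnd2, Ccnd3, Cdc25b and Cks1b fell and Cdk4 rose without WT 3. Over all genes, 16.1% fell and 17.7% rose in that fit. Ccnd3, which encodes cyclin D3, was at 660.5, 683 and 349 CPM and then 333, 319.8 and 203 CPM. Ccnd2, which encodes cyclin D2, was at 992, 980.1 and 542 CPM and then 558, 573 and 567 CPM, and KO 3 lay between KO 1 and KO 2. Of 17 brakes on the cycle, 8 fell and 1 rose without WT 3, beside the same shares of all genes. Ccng1 was at 570, 587 and 309 CPM in WT 1 to WT 3 and at 320, 284 and 364 CPM in KO 1 to KO 3. It fell by 0.84 (SE 0.11, adjusted p = 0.00165), and Cdkn1b did not pass (adjusted p = 0.103). The 1 brake that rose was Gadd45b, a stress-induced gene, by 4.30 (SE 0.21, adjusted p = 3.75e-05). Gadd45b was at 6.75, 9.07 and 136 CPM in WT 1 to WT 3 and at 144, 137 and 185 CPM in KO 1 to KO 3, so that WT 3 again lay with the knockout libraries. Cdkn1a, which encodes the CDK inhibitor p21, was at 503, 512 and 307 CPM and then 314, 327 and 418 CPM, and fell by 0.52 (SE 0.13, adjusted p = 0.0217). Btg1, an antiproliferative gene of resting lymphocytes, was at 661, 700.3 and 479.5 CPM in WT 1 to WT 3 and at 476, 506 and 974 CPM in KO 1 to KO 3. Btg1 was thus highest in KO 3, where the 46 genes were lowest. In KO 3, 5 of 17 brakes lay below the mean of KO 1 and KO 2, beside 7119 of the 14052 genes tested. The median brake stood 0.39 log2 units above that mean, and the median gene stood at -0.0064. From WT 1 and WT 2 to KO 1 and KO 2, the median brake differed by -0.66 log2 units and the median gene by 0.0022. The median of the 46 genes differed by -0.80 there, in the direction of the brakes.

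Markers of other cells differed between libraries. The B cell markers, of which 5 of 7 were listed, summed to 24.6 to 30.7 CPM in wild-type and 25.7 to 201 CPM in knockout libraries. The high value was KO 3, where Ighm alone was at 194 CPM, while Ms4a1 and Pax5 were not listed. Of the epithelial, endothelial and stromal markers 6 of 10 were listed, and they summed to 60.9 to 108 CPM in wild-type and 120.2 to 140.4 CPM in knockout libraries. Pecam1 was at 10.4, 8.54 and 93.1 CPM in WT 1 to WT 3 and 107, 92.0 and 131 CPM in KO 1 to KO 3, and Epcam at 57.4, 52.3 and 14.3 and 12.6, 13.7 and 8.90 CPM, while Sftpc, Sftpb, Cdh5 and Pdgfra were not listed. Pecam1 and Epcam therefore separated WT 1 and WT 2 from the other 4 libraries, as most of the 46 genes did. T cell markers (8 of 9 listed) summed to 128 to 202 CPM in wild-type and 145 to 151 CPM in knockout libraries, mostly Trbc2. Of the other T cell markers, Cd3g was at 35.3, 37.2 and 16.3 CPM and then 18.3, 18.8 and 11.4 CPM, in the order of the mitotic genes, and Cd5 was at 4.05 CPM in KO 3 and at most 0.803 CPM elsewhere. Cd3e stayed between 2.39 and 4.41 CPM, and Cd8a was not listed. Macrophage and monocyte markers (7 of 10 listed) summed to 10.9 to 29.1 CPM in wild-type and 3.00 to 14.8 CPM in knockout libraries, with C1qa, C1qb and Marco not listed. Granulocyte and mast cell, NK cell and erythroid markers summed to at most 12.8, 3.01 and 10.9 CPM in any library. The part of these cells in the order of the mitotic genes was not tested.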

How the data were processed

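The authors deposited a table of normalized signal and a table of estimated counts per gene for 6 libraries, in which 47.1% to 48.5% of the counts of a library were whole (within 1e-06). The submitters' processing notes list CASAVA 1.8.2, STAR, Partek and mm10. How reads were counted and whether strand was used was not stated, so genes with overlapping exons (13 of the 46) are uncertain. Columns were matched by the sample descriptions, and 0 value columns were left unmapped.

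Estimated counts were rounded and fitted with edgeR 4.0.16 in R 4.3.3 (TMM, filterByExpr, robust glmQLFit, glmQLFTest, no covariate), adjusted by Benjamini-Hochberg over all genes tested, at a threshold of 0.05. Standard errors are log2 differences over the root of F. CPM use TMM-scaled totals. Floors of 3 counts cover counting error only. The fit was tested on simulated data. Exons are from GENCODE vM21 and promoters from RefSeq. Alternatives were other scalings and filters, DESeq2 1.42.0, limma-voom, limma-trend (limma 3.58.1) on the log2 of the deposited signal, the replicate number as a block, and libraries left out. The members, lists and alternatives were chosen with earlier results of these data known. Outside the 46, the rule named the 3 most abundant genes of each list, 12 fixed regulators and replication genes, and Atg5. The level of 1 B cell marker is not reported here.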

Additional observations from a re-analysis of the deposited data

How the results depend on the processing

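With all 6 libraries, edgeR called 0 genes and 0 of the 46 members under each other scaling and filter, as did limma-voom and limma-trend. DESeq2 called 323 genes, 15 higher and 308 lower, and 2 members, both lower. Leaving out 1 library at a time gave 0 to 4991 genes (0 to 2611 higher, 0 to 2380 lower) and 0 to 24 members, all lower, and only the removal of WT 3 gave counts above 0. Without both libraries numbered 3 there were 6505 genes (3251 higher, 3254 lower) and 43 members, all lower. The median member lay between -1.17 and -0.61 when 1 library was left out. All 46 differences were below 0 in each fit except that of Hmgb2, at 0.060 without KO 3 and 0.073 without both libraries numbered 3, and between -0.31 and 0.060 when 1 library was left out. The causes were not tested. The sources used here do not say whether the replicate numbers pair the libraries. Deviations from the group mean correlated at -0.0367, 0.0196 and -0.00776 between libraries of the same number. These values cannot decide it, because WT 3 and KO 3 each stood apart from the rest of their group. With the replicate block 0 genes and 0 members passed, with a median member of -1.01. Each member had at least 86 counts in each library, so that detection does not limit them.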

Other observations

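Some cell-cycle genes outside the 46 passed DESeq2 with all 6 libraries and not edgeR, and are named here after their values were seen. Cdc25b, a CDK-activating phosphatase, was at 130.3, 137 and 38.8 CPM in WT 1 to WT 3 and at 35.2, 32.2 and 13.0 CPM in KO 1 to KO 3 (adjusted p = 0.025 by DESeq2 and 0.342 by edgeR). Cdkn2d, which encodes the CDK4 inhibitor p19, was at 143, 167 and 48.6 CPM and then 46.7, 48.0 and 37.6 CPM. In both, WT 3 lay nearer to KO 1 and KO 2 than to WT 1 and WT 2. The kinesin Kif22 was at 187, 222 and 86.7 CPM and then 77.9, 79.2 and 42.4 CPM. Tfdp2, a partner of E2F proteins, was at 29.5, 33.2 and 29.4 CPM and then 20.5, 19.2 and 23.2 CPM, so that WT 3 lay with the other wild-type libraries and KO 3 was not the lowest library.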
